A study of Homo sapiens with 8 samples.

Results

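The CHOP arm of the integrated stress response was followed here through 10 genes: ATF4, DDIT3, ATF3, CEBPB, NUPR1, TRIB3, PPP1R15A, CHAC1, SESN2 and DDIT4. They were chosen by symbol with earlier results of these data known, so the shares of all genes set beside their counts are a description. All 10 were found among the 62649 genes of the table, and all 10 passed the filter on low values that left 19122 genes to test. The samples were spheroids of AsPC-1, a line derived from the ascites of a pancreatic cancer, and of PANC-1, derived from a pancreatic duct tumour. Both lines are labelled wild type. Spheroids of each line had spent 3 days in methylcellulose medium when they received vehicle, 10 µM roseoflavin, 1 nM trametinib or both compounds together for 24 h. Roseoflavin is a bacterial analogue of riboflavin, and trametinib inhibits the MEK kinases upstream of ERK. Each line and treatment had 1 library, 8 in all, so a treatment could be judged only by repeating its comparison with and without the other compound or in the other line.

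In the integrated stress response, kinases that sense amino acid shortage, misfolded protein in the endoplasmic reticulum, double-stranded RNA or mitochondrial and haem stress phosphorylate the translation factor eIF2alpha. General translation slows while translation of ATF4 is favoured, so ATF4 activity is controlled largely above the level of its mRNA. ATF4 then switches on amino acid supply genes and, when stress persists, DDIT3, which encodes the factor CHOP. CHOP acts with ATF4 and other basic leucine zipper proteins on genes that restore translation, restrain growth or favour cell death.

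The values are TPM, a transcript abundance scaled per gene length and to a common total in every library, which keeps no record of sequencing depth. Transcripts of the mitochondrial genome took 41.2% to 44.1% of the total in AsPC-1 and 22.8% to 25.6% in PANC-1. In AsPC-1 this share was 44.1% with roseoflavin against 41.2% with vehicle, and 41.3% with both compounds against 42.2% with trametinib. The PANC-1 shares were 23.7% against 25.6% and 22.8% against 24.8%. Epithelial markers summed to between 5036 and 5902 TPM in AsPC-1 and between 966 and 1054 TPM in PANC-1, and mesenchymal markers to between 668 and 825 TPM and between 3155 and 3416 TPM. Most of the mesenchymal sum was VIM, at 660 to 816 TPM in AsPC-1 and 3132 to 3391 TPM in PANC-1. CDH2, ZEB1 and FN1 reached at most 5.57, 18.8 and 0.533 TPM. Most of the epithelial sum in PANC-1 was KRT19, at 943 to 1032 TPM. Of the markers of other cells, CD3E was listed at 0 in every library, PTPRC, DCN and the 3 endothelial markers stayed at or below 0.083 TPM, and PDGFRB at or below 0.892 TPM. CD68 lay between 108 and 139 TPM in all libraries. LUM reached 146 TPM in AsPC-1, and COL1A1 reached 107 TPM in PANC-1. In bulk libraries more transcript per cell and more cells that carry it cannot be told apart.

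In PANC-1 all 10 genes were higher in both roseoflavin libraries than in both libraries without it, and in AsPC-1 5 of them were lower. The background for the first count was 22.9% of the 19122 genes tested and for the second 21.6%, and the 5 genes that were in both counts, ATF4, DDIT3, SESN2, DDIT4 and NUPR1, compare with 5.31% of all genes. In PANC-1 the folds of single genes lay between 1.14 and 1.80 without trametinib, with a median of 1.33, and between 1.18 and 1.76 on top of trametinib, with a median of 1.41. In AsPC-1 the folds without trametinib lay between 0.714 and 1.06, with a median of 0.875 and 2 genes higher, against 32.9% of all genes. On top of trametinib they lay between 0.347 and 1.34, with a median of 0.958 and 4 genes higher, against 42.9% of all genes. The difference between the lines passed its own test for DDIT3 and DDIT4. The plot of TPM by library shows the 4 treatments side by side.

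**Figure D1:**
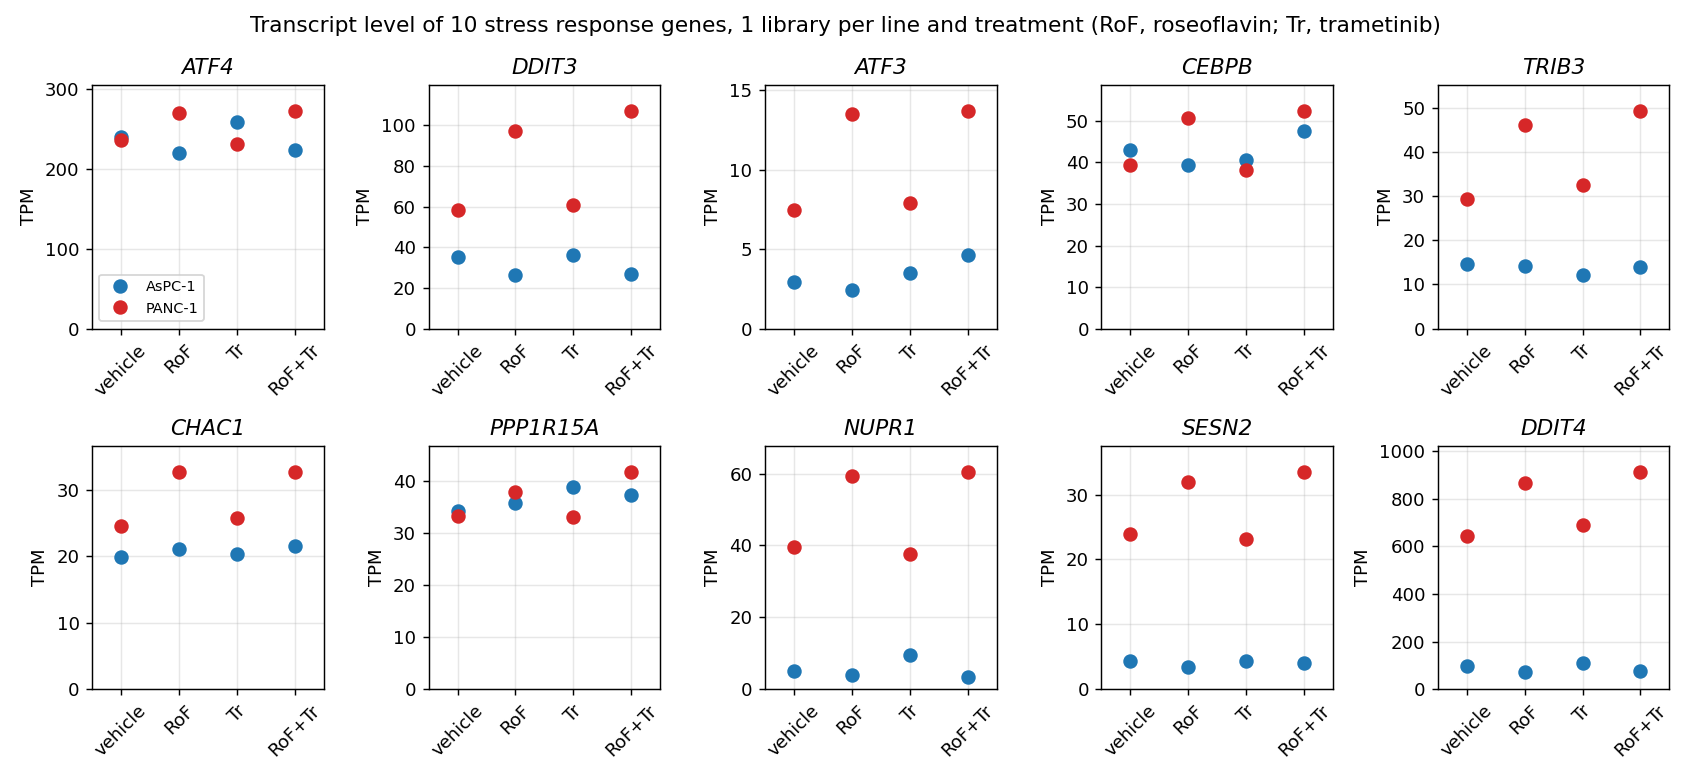
TPM of each of the 10 genes (vertical axes, linear and starting at 0) in the 4 AsPC-1 libraries (blue) and the 4 PANC-1 libraries (red), 1 point per library, by treatment on the horizontal axis. In PANC-1 the roseoflavin and combination points lie above the vehicle and trametinib points in all 10 panels, while in AsPC-1 DDIT3 and DDIT4 show the opposite order.

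ATF4 (ENSG00000128272), the transcription factor at the head of the pathway, lies at chromosome 22, 39519695 to 39522685, plus strand. All positions here are from GENCODE release 29 on GRCh38. ATF4 was at 240 TPM with vehicle, 220 TPM with roseoflavin, 258 TPM with trametinib and 223 TPM with both compounds in AsPC-1. Its PANC-1 values, given in that order as all values are from here on, were 236, 270, 231 and 272 TPM. The roseoflavin libraries were the lower pair in AsPC-1 and the higher pair in PANC-1, with no overlap in either line. On the log2(TPM + 1) scale, on which changes of low genes look smaller than they are, the limma estimate for roseoflavin was -0.17 (SE 0.0475) in AsPC-1 and 0.21 (SE 0.0475) in PANC-1. Neither passed a Benjamini-Hochberg adjusted p of 0.05 over all genes (limma adjusted p 0.439 and 0.384), and neither did the difference between the lines (0.38, SE 0.0672, adjusted p 0.259).

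DDIT3 (ENSG00000175197) encodes CHOP and lies at chromosome 12, 57516588 to 57521737, minus strand. In AsPC-1 it was at 35.4 TPM with vehicle, 26.4 TPM with roseoflavin, 36.3 TPM with trametinib and 26.7 TPM with both. In PANC-1 the values were 58.3, 97.3, 60.9 and 107 TPM. Both roseoflavin libraries were thus low in AsPC-1 and high in PANC-1, and that order was the same with and without trametinib. The fold with roseoflavin was 0.745 in AsPC-1 without trametinib and 0.735 on top of it. In PANC-1 it was 1.67 and 1.76. The estimates were -0.42 (SE 0.0492, limma adjusted p 0.234) in AsPC-1 and 0.77 (SE 0.0492, adjusted p 0.0614) in PANC-1, so neither passed alone. The PANC-1 change exceeded the AsPC-1 change by 1.19 (SE 0.0696, 95% interval 1.01 to 1.37), which passed (adjusted p 0.0383).

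The promoter of DDIT3 is shown because the gene has the smallest p of the set for the difference between lines. The 250 bases before a RefSeq start of the gene on GRCh38.p14 (chr12:57520515-57520764, minus strand) are given 5′ to 3′ along the gene. They lie inside the GENCODE span given above, whose start is further upstream. Capitals mark an AP-1 motif (TGACTCA), both CCAAT boxes, the second of them on the opposite strand as ATTGG, and the core of an endoplasmic reticulum stress element, a CCAAT and a CCAC held 9 bases apart, which shares its first letters with one of the CCAAT boxes.
DDIT3: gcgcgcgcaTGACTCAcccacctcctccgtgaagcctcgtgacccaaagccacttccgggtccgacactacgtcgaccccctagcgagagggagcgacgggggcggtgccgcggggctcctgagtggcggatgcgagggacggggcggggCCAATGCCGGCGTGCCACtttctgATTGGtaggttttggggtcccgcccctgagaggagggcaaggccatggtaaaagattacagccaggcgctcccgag
Searched on both strands over the 250 bases before every start in the table, the stress element core was found in 0.282% of 35116 windows, TGACTCA in 4.20% and CCAAT in 32.0%. A match is a run of letters and not a measured binding site.

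Other annotated genes overlap DDIT3 on the same strand. ENSG00000285133 (AC022506.1, unnamed in the table) lies inside DDIT3 at chromosome 12, 57517712 to 57520480, and its TPM was 4.01 to 4.84 times that of DDIT3 over the 8 libraries. It was at 147, 111, 145 and 108 TPM in AsPC-1 and at 277, 470, 268 and 505 TPM in PANC-1, for vehicle, roseoflavin, trametinib and both. As for DDIT3, the roseoflavin libraries were the lower pair in AsPC-1 and the higher pair in PANC-1, and the difference between lines was 1.25 (SE 0.0734, limma adjusted p 0.0383). How the counting assigned reads to overlapping genes is not given in the sources used here, so the level of DDIT3 is uncertain and the 2 entries are not independent. MIR616, a microRNA gene in DDIT3, was between 3.31 and 20.7 TPM, and its difference between lines did not pass (0.55, SE 0.676, adjusted p 0.831).

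The partners of CHOP came next. ATF3 (ENSG00000162772, chromosome 1, 212565334 to 212620777, plus strand) encodes a stress-induced factor of the ATF family. In AsPC-1 it was at 2.91, 2.43, 3.48 and 4.66 TPM with vehicle, roseoflavin, trametinib and both. In PANC-1 it was at 7.47, 13.5, 7.88 and 13.7 TPM. The PANC-1 roseoflavin libraries stood well above the other pair, whereas in AsPC-1 the combination was the highest and roseoflavin alone the lowest. The PANC-1 folds were 1.80 and 1.74, and the estimate was 0.75 (SE 0.182, limma adjusted p 0.397), which did not pass.

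CEBPB (ENSG00000172216, chromosome 20, 50190734 to 50192689, plus strand) encodes C/EBP beta, a dimer partner of CHOP and ATF4. Its values were 43.0, 39.4, 40.5 and 47.5 TPM in AsPC-1, and 39.4, 50.8, 38.2 and 52.4 TPM in PANC-1. In PANC-1 the roseoflavin libraries were 1.29 and 1.37 times the matched libraries, while in AsPC-1 the groups overlapped. The estimate was 0.40 (SE 0.0933, limma adjusted p 0.393) in PANC-1 and 0.05 (SE 0.0933, adjusted p 0.931) in AsPC-1, where it was -0.04 without the trametinib library and -0.10 without the combination library.

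NUPR1 (ENSG00000176046, chromosome 16, 28532708 to 28539174, minus strand) encodes a small stress-induced chromatin cofactor. In AsPC-1 it was at 5.13 TPM with vehicle, 4.03 TPM with roseoflavin, 9.65 TPM with trametinib and 3.34 TPM with both. In PANC-1 it was at 39.7, 59.3, 37.7 and 60.5 TPM. The trametinib library of AsPC-1 held the highest of that line's 4 values, 1.88 times vehicle, and the combination held the lowest. The AsPC-1 estimate for roseoflavin was -0.79 (SE 0.248, limma adjusted p 0.473), and it was -0.35 without the trametinib library of AsPC-1 and -1.23 without its vehicle library. In PANC-1 the folds were 1.49 and 1.60 and the estimate 0.62 (SE 0.248, adjusted p 0.532). The difference between lines was the largest of the 10 genes and also the least precise (1.41, SE 0.351, adjusted p 0.374).

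Among the genes that feed back on the response, TRIB3 (ENSG00000101255, chromosome 20, 362835 to 397559, plus strand) encodes a pseudokinase that is induced by ATF4 and CHOP and restrains both. It was at 14.6, 14.2, 12.2 and 14 TPM in AsPC-1 and at 29.5, 46.3, 32.6 and 49.4 TPM in PANC-1. The AsPC-1 libraries lay close together, and the PANC-1 roseoflavin libraries were 1.57 and 1.51 times their matched libraries. The estimates were 0.07 (SE 0.101, limma adjusted p 0.882) in AsPC-1 and 0.61 (SE 0.101, adjusted p 0.249) in PANC-1. Without the trametinib library of AsPC-1 the first was -0.08.

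PPP1R15A (ENSG00000087074, chromosome 19, 48872392 to 48876057, plus strand) encodes GADD34, the inducible subunit that directs protein phosphatase 1 to eIF2alpha and lets translation resume. It was at 34.2, 35.8, 38.7 and 37.3 TPM in AsPC-1 and at 33.2, 37.8, 33.1 and 41.7 TPM in PANC-1. This was the least divergent gene of the set, with PANC-1 folds of 1.14 and 1.26. Its difference between the lines was 0.25 (SE 0.0847, limma adjusted p 0.454). Its promoter window (chr19:48872171-48872420, plus strand) is printed because it holds a palindromic cAMP response element, a site class bound by ATF and CREB factors. The motif, TGACGTCA, is in capitals, and 1.65% of all windows hold it.
PPP1R15A: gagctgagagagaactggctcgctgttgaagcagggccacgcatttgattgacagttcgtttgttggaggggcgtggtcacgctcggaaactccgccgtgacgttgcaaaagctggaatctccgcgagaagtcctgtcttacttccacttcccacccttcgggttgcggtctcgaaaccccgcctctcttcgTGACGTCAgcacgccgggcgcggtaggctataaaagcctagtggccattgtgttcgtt

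Of the effectors, CHAC1 (ENSG00000128965, chromosome 15, 40952962 to 40956519, plus strand) encodes an enzyme that degrades glutathione. In AsPC-1 it was at 19.9, 21.1, 20.4 and 21.6 TPM, and in PANC-1 at 24.6, 32.7, 25.7 and 32.6 TPM. It was the only one of the 10 genes whose roseoflavin libraries were both above the other pair in AsPC-1 as well, by 1.06-fold in each comparison, a pattern that 10.6% of all genes tested shared. In PANC-1 the folds were 1.33 and 1.27, with an estimate of 0.36 (SE 0.0461, limma adjusted p 0.135). Its window (chr15:40953221-40953470, plus strand) precedes the RefSeq start and lies inside the GENCODE span. It is printed for its composite site of an ATF and a C/EBP motif, TGATGNAA, the site type through which ATF4 acts. Capitals mark that site, read here on the opposite strand as TTGCATCA at positions -209 to -202 from the start, and 3 CCAAT boxes.
CHAC1: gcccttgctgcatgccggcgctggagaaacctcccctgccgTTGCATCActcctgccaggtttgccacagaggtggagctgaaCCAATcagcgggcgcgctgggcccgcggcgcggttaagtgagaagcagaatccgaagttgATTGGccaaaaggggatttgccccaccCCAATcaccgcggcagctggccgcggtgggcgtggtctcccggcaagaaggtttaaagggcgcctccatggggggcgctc
Of the 9 genes of the set with a RefSeq window, CHAC1 and ATF3 held TGATGNAA, against 3.14% of all windows, and 6 held CCAAT, against 32.0%. A gene was counted if any of its windows held the motif, while the shares are over single windows, so the 2 measures are unlike. The absence of a motif from the other windows says only that these letters are not in those 250 bases.

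SESN2 (ENSG00000130766, chromosome 1, 28259527 to 28282491, plus strand) encodes sestrin 2, a leucine-sensing inhibitor of mTORC1 signalling. It was at 4.37, 3.44, 4.29 and 4.08 TPM in AsPC-1 and at 23.9, 31.9, 23.2 and 33.5 TPM in PANC-1. The roseoflavin libraries were the lower pair in AsPC-1 and the higher pair in PANC-1, where the folds were 1.33 and 1.44. The estimates were -0.16 (SE 0.0759, limma adjusted p 0.573) and 0.46 (SE 0.0759, adjusted p 0.249). The AsPC-1 estimate was -0.09 under quantile normalization, -0.07 without the roseoflavin library of AsPC-1 and -0.26 without its combination library.

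DDIT4 (ENSG00000168209, chromosome 10, 72273920 to 72276036, plus strand) encodes REDD1, which restrains mTORC1 through the TSC complex and is induced by ATF4 and also by hypoxia through HIF. In AsPC-1 it was at 99.6 TPM with vehicle, 71.1 TPM with roseoflavin, 110 TPM with trametinib and 76.0 TPM with both. In PANC-1 it was at 645, 867, 690 and 913 TPM, the highest level of the 10 genes in that line. As for DDIT3, the roseoflavin libraries were low in one line and high in the other. The AsPC-1 folds were 0.714 and 0.694, and the PANC-1 folds 1.34 and 1.32. The estimates were -0.50 (SE 0.0382, limma adjusted p 0.162) and 0.41 (SE 0.0382, adjusted p 0.109). The difference between lines was 0.91 (SE 0.0540, 95% interval 0.78 to 1.05) and passed (adjusted p 0.0383).

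The window before DDIT4 (chr10:72273674-72273923, plus strand) is shown with a hypoxia response core, ACGTG, and 2 CCAAT boxes on the opposite strand in capitals. ACGTG was found in 18.5% of all windows and, counted by gene as above, in 2 of the 9 windowed genes of the set, DDIT4 and ATF4.
DDIT4: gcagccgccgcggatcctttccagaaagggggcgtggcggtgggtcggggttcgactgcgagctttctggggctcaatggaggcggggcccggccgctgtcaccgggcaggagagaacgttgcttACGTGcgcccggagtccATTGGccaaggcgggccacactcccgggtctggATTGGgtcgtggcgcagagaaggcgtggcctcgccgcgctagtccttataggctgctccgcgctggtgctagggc

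Across the set, the difference between the lines in the response to roseoflavin was positive for 10 of 10 genes, from 0.25 to 1.41 with a median of 0.58, while the median over all genes tested was 0.04. Of the 10, 2 passed with a positive difference, DDIT3 and DDIT4, against 0.0209% of all genes, and none with a negative one, against 0.00523% (0.0261% in either direction). That 0.0209% is 4 genes, which include these 2 and AC022506.1, the entry that overlaps DDIT3. All 10 had an unadjusted p under 0.05 in limma, against 9.97% of all genes. The 2 calls were lost under quantile normalization (adjusted p 0.071 for both genes), without mitochondrially encoded genes (0.0994), with both line interactions in one model (0.221) and when any 1 of the 8 libraries was left out (0.186 to 0.461). The difference itself stayed between 1.14 and 1.24 for DDIT3 and between 0.86 and 0.94 for DDIT4 under these settings.

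**Figure D2:**
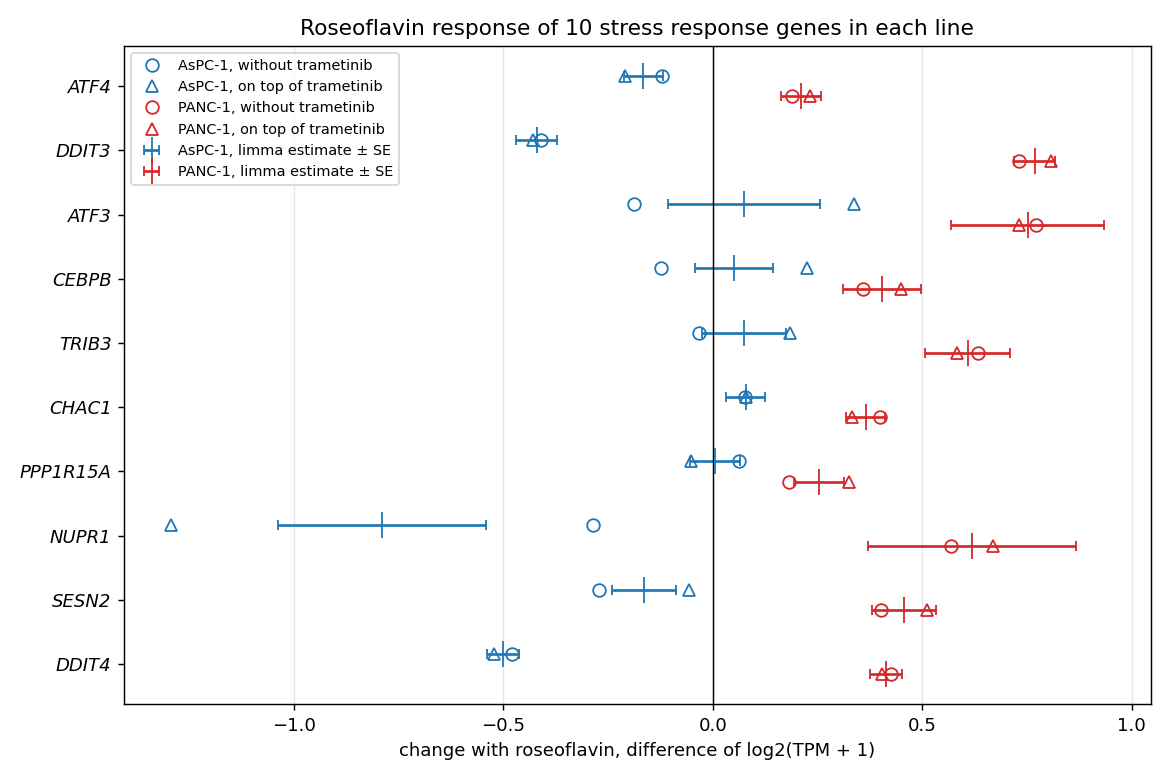
Change with roseoflavin on the log2(TPM + 1) scale (horizontal axis) for the 10 genes (vertical axis) in AsPC-1 (blue) and PANC-1 (red). Circles are roseoflavin against vehicle, triangles the combination against trametinib, and vertical ticks with bars the limma estimate ± SE; all PANC-1 symbols lie right of 0, and the AsPC-1 symbols of DDIT3 and DDIT4 lie between -0.52 and -0.41.

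Within PANC-1, the estimates for roseoflavin ran from 0.21 (ATF4) to 0.77 (DDIT3), with a median of 0.44 against 0 for all genes. None of the 10 passed over all 19122 genes (limma, smallest adjusted p 0.0614 for DDIT3), and 0% of all genes did. At an unadjusted p under 0.05 there were 9 of the 10 genes, against 9.47% of all genes. TPM + 1 was higher by at least 25% in both comparisons for 8 of the 10, all but ATF4 and PPP1R15A, against 2.13% of all genes, and lower by that margin for 0, against 1.98%. When the test was limited to RefSeq mRNAs that averaged 10 TPM or more, DDIT3, TRIB3, CHAC1, SESN2, DDIT4 and CEBPB passed (adjusted p 0.000326 to 0.0477) of 9 members tested, where 0.898% of the 7907 genes left were called higher, and ATF3 was removed by that filter.

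Within AsPC-1 the set was divided. ATF4, DDIT3, SESN2, DDIT4 and NUPR1 had both roseoflavin libraries below the other pair, CHAC1 had them above, and ATF3, CEBPB, TRIB3 and PPP1R15A overlapped. The estimates had a median of -0.08, against -0.03 over all genes, and this median ran from -0.20 to -0.03 over the 15 alternative settings. Of the 10 genes 0 passed (limma, smallest adjusted p 0.162 for DDIT4), as for 0% of all genes. In DDIT3 and DDIT4, as in 2.64% of all genes, TPM + 1 without roseoflavin exceeded the roseoflavin value by at least 25% in both comparisons. None of the 10 was higher by that margin, against 0.947% of all genes. Among the RefSeq mRNAs these 2 also passed (adjusted p 0.014 and 0.0036), where 0.797% of genes were called lower. Pooled over both lines, roseoflavin gave no call among the 10 genes and 0% of all genes (limma), and the 3 with an unadjusted p under 0.05, against 7.1% of all genes, were CHAC1 (0.22, SE 0.0660), TRIB3 (0.34, SE 0.125) and CEBPB (0.23, SE 0.0934). The pooled model had no term for the difference between the lines in this response, which counted as spread.

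Trametinib at 1 nM gave no call in the set. Over both lines the estimates lay between -0.01 (TRIB3) and 0.25 (ATF3), and none of the 10 passed or had an unadjusted p under 0.05 (limma, adjusted p 0.864 to 0.997), with 0% of all genes passing. The line difference in the roseoflavin response had no term here and counted as spread (SE 0.239 for DDIT3 and 0.184 for DDIT4). The 95% intervals reached from -0.64 to 0.91 over the 10 genes, so smaller effects of trametinib could not be told from 0. In PANC-1 the folds with trametinib alone lay between 0.949 (NUPR1) and 1.11 (TRIB3). There both roseoflavin libraries lay above the other pair for all 10 genes. The trametinib libraries therefore could not both lie above or both below the others, and no such count is given. In AsPC-1 the folds with trametinib alone lay between 0.838 (TRIB3) and 1.88 (NUPR1). ATF4, DDIT3, SESN2, DDIT4, NUPR1 and CHAC1 were separated by roseoflavin in that line, so trametinib could not separate them as well. Of the rest, the trametinib libraries lay above the others for ATF3 and PPP1R15A and below them for TRIB3, and they overlapped for CEBPB. Over all genes the shares were 24.0% higher and 13.3% lower. Those shares include genes that roseoflavin separated, so the counts cannot be read against them over all 10 genes. The difference between the lines in the trametinib response passed for none of the 10 (limma, adjusted p 0.841 to 0.998). For DDIT3 its 95% interval ran from -1.26 to 1.41 (SE 0.526), so in this model differences of that size could not be told from 0. The model had no term for the line difference in the roseoflavin response, which therefore counted as spread and widened the interval. With both line interactions in one model, 0 of the 10 genes and 0 of all genes passed.

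**Figure D3:**
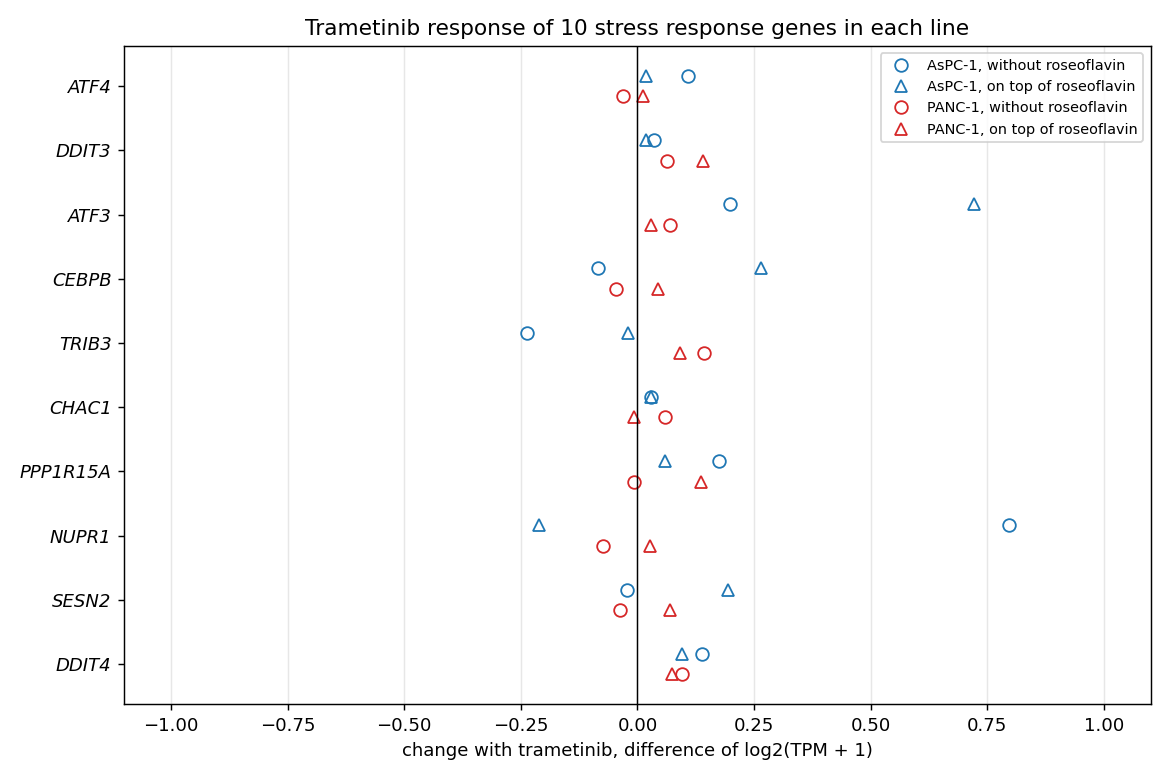
Change with trametinib on the log2(TPM + 1) scale (horizontal axis) for the 10 genes (vertical axis) in AsPC-1 (blue) and PANC-1 (red). Circles are trametinib against vehicle and triangles the combination against roseoflavin; the PANC-1 symbols lie between -0.07 and 0.14, and the farthest AsPC-1 symbols are NUPR1 without roseoflavin (0.80) and ATF3 on top of it (0.72).

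The combination was set against vehicle in each line, with no replicate. In PANC-1 all 10 genes were higher, by 1.15-fold (ATF4) to 1.84-fold (DDIT3), against 51.1% of all genes. In AsPC-1 4 were higher and 6 lower, from 0.652-fold (NUPR1) to 1.60-fold (ATF3), while 46.8% of all genes were higher. A term for roseoflavin and trametinib given together, beyond their separate effects on the log2 scale, was tested over both lines. None of the 10 genes passed, and 0% of all genes did (limma, 536 genes at an unadjusted p under 0.05), with estimates from -0.45 (NUPR1, SE 0.670) to 0.24 (ATF3, SE 0.374). The 95% intervals reached from -2.14 to 1.33 over the 10 genes, so in this model departures of that size could not be told from 0. Here too the line difference in the roseoflavin response had no term and counted as spread, which widened the intervals.

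The levels of the genes also differed between the lines. In the vehicle libraries the order in AsPC-1 was ATF4 (240 TPM), DDIT4 (99.6), CEBPB (43.0), DDIT3 (35.4), PPP1R15A (34.2), CHAC1 (19.9), TRIB3 (14.6), NUPR1 (5.13), SESN2 (4.37) and ATF3 (2.91). In PANC-1 it was DDIT4 (645 TPM), ATF4 (236), DDIT3 (58.3), NUPR1 (39.7), CEBPB (39.4), PPP1R15A (33.2), TRIB3 (29.5), CHAC1 (24.6), SESN2 (23.9) and ATF3 (7.47). In AsPC-1 the ranges over the 4 libraries of neighbours in this order overlapped for DDIT3 and PPP1R15A, for NUPR1 and SESN2, and for SESN2 and ATF3. In PANC-1 each gene from DDIT3 down to CHAC1 overlapped the next, and DDIT4, ATF4 and ATF3 stood apart from their neighbours.

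Over all 4 treatments PANC-1 exceeded AsPC-1 for 7 of the 10 genes in limma, while 62.3% of all genes tested were called higher in PANC-1 and 83.8% were called in either direction. The libraries of the lines did not overlap for these 7 genes, as for 59.4% of all genes. The difference was 3.12 for DDIT4 (SE 0.184, adjusted p 5.26e-06), 3.00 for NUPR1 (SE 0.322, adjusted p 0.00012), 2.52 for SESN2 (SE 0.134, adjusted p 3.14e-06) and 1.42 for TRIB3 (SE 0.125, adjusted p 4.17e-05). It was 1.39 for ATF3 (SE 0.179), 1.31 for DDIT3 (SE 0.239) and 0.45 for CHAC1 (SE 0.0660), and it did not pass for ATF4, CEBPB and PPP1R15A. The median over all genes was itself 0.55, and it moved by -0.51 under quantile normalization and by -0.33 without mitochondrially encoded genes. The difference for CHAC1 lay below that median and was -0.07 under quantile normalization, so its direction depended on the scaling. CHAC1 lost its call in both of these settings (limma adjusted p 0.363 and 0.283), which left 6 of the 10 genes called higher. Without mitochondrially encoded genes ATF4, CEBPB and PPP1R15A were called lower in PANC-1 (-0.29, -0.31 and -0.39), as were 30.8% of all genes. Under quantile normalization CEBPB and PPP1R15A were (-0.40 and -0.49), as were 37.5% of all genes, and the differences for DDIT3, ATF3 and TRIB3 were 0.85, 0.83 and 0.91.

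Other genes around the pathway were described as lists. In the main setting none of their genes passed the adjusted threshold for roseoflavin in either line or for the difference between lines. Counts of direction and medians are therefore given. Of the 4 genes per list with the widest differences, VEGFA passed for the difference between lines in 3 of 7 alternative settings that kept all libraries. ASNS, PCK2, PSAT1, STC2, ERO1A, ANGPTL4, NDRG1 and ADM did so in 1 of 7, and the others in none. Of 14 genes for eIF2alpha kinases, eIF2, eIF2B and their regulators, 6 had a positive difference between lines and 8 a negative one, with a median of -0.05. OMA1, a mitochondrial protease that relays stress to the kinase HRI, had the widest difference among those averaging 5 TPM or more (0.26, SE 0.0856, limma adjusted p 0.451). PPP1R15B, the constitutive counterpart of GADD34, followed with 0.22 (SE 0.0823, adjusted p 0.489).

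The amino acid supply genes driven by ATF4 had the same direction as the 10 genes. All 16 had a positive difference between lines, with a median of 0.33, and their medians with roseoflavin were -0.03 in AsPC-1 and 0.28 in PANC-1. PHGDH, ALDH1L2 and CBS passed the filter through 1 line only, and without them 13 of 13 were positive (median 0.36). ASNS, asparagine synthetase, was at 25.9, 21.8, 28.3 and 23.6 TPM in AsPC-1 and at 72.7, 99.3, 73.3 and 101 TPM in PANC-1 with vehicle, roseoflavin, trametinib and both. Its order of libraries was that of DDIT3, and its difference was 0.70 (SE 0.0706, limma adjusted p 0.159). PCK2, the mitochondrial form of PEPCK, had a difference of 0.65 (SE 0.110) and PSAT1, of serine synthesis, one of 0.55 (SE 0.103), neither passing (adjusted p 0.254 and 0.288). Of 11 other ATF4-driven stress genes that were tested, VLDLR and STC2 passed the filter through 1 line only, and the remaining 9 all had a positive difference (median 0.34). Among them GDF15, a secreted stress cytokine, was at 70.1, 100, 61.3 and 98.3 TPM in PANC-1 and at 25.2, 24.7, 30.8 and 36.1 TPM in AsPC-1. STC2, a secreted glycoprotein, was listed at 0 in every library of AsPC-1, and its PANC-1 values were 109, 153, 104 and 163 TPM in PANC-1.

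Targets of the other unfolded protein response branches, ATF6 and XBP1, were divided, with 7 of 14 positive and a median difference of -0.01. HSPA5, the chaperone BiP, had the widest among those averaging 5 TPM or more (0.36, SE 0.0947, limma adjusted p 0.385), at 259, 307, 250 and 310 TPM in PANC-1. Of 10 p53 targets 5 were positive (median -0.01, or 0.02 without FAS, which passed the filter through 1 line only), and of 5 tested relatives of the sestrins, REDD1 and other mTORC1 brakes 3 were, with a median that ran from -0.04 to 0.18 over the alternative settings. In that last list CASTOR1, an arginine sensor, had a difference of 0.04 (SE 0.177, limma adjusted p 0.963) that was -0.04 under quantile normalization. Of 9 tested CHOP-linked genes of death and endoplasmic reticulum oxidation 6 were positive (median 0.11, or 0.13 without ERO1B, which also passed through 1 line only). ERO1A, an oxidase of the endoplasmic reticulum that is a target of both CHOP and HIF, had 0.88 (SE 0.152, adjusted p 0.254), whereas TNFRSF10B, the death receptor DR5, had 0.24 (SE 0.0965, adjusted p 0.505). Of 11 tested leucine zipper partners 8 were positive (median 0.16), with CEBPG at 0.40 (SE 0.0787, adjusted p 0.300) and FOSL1 at -0.40 (SE 0.0921, adjusted p 0.348).

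Targets of HIF had the directions of DDIT4. Of the 16 tested, BNIP3 and EGLN3 passed the filter through 1 line only. The other 14 all had negative estimates with roseoflavin in AsPC-1 (median -0.50) and positive ones in PANC-1 (median 0.34), for a median difference of 0.83. The summed level of all 16 lay between 1424 and 1930 TPM in AsPC-1 and between 2976 and 3581 TPM in PANC-1. VEGFA, which ATF4 and HIF both drive, was at 25.7, 19.1, 26.9 and 20.4 TPM in AsPC-1 and at 47.8, 63.4, 47.7 and 66.0 TPM in PANC-1 (difference 0.83, SE 0.0661, limma adjusted p 0.127). ANGPTL4, a secreted lipase inhibitor, had a difference of 1.53 (SE 0.370, adjusted p 0.364). Their part in the result for DDIT4 was not tested. With mitochondrially encoded genes removed, the roseoflavin estimates of the 10 genes lay between 0.17 and 0.73 in PANC-1, each still positive, and the differences between lines between 0.19 and 1.41.

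**Figure D4:**
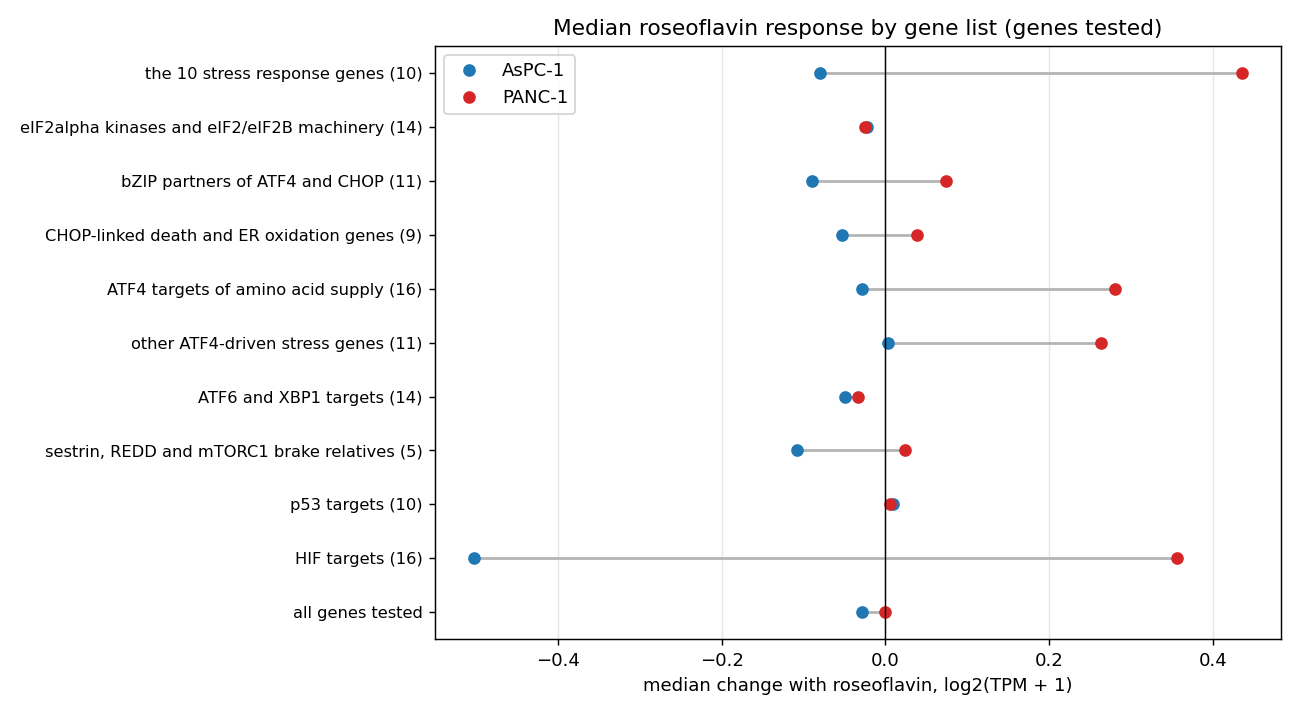
Median change with roseoflavin on the log2(TPM + 1) scale (horizontal axis) in AsPC-1 (blue) and PANC-1 (red) for the 10 genes, for each list with its number of genes tested in brackets (those that passed the filter through 1 line included), and for all genes tested; grey lines join the lines' medians. The widest gap is that of the HIF targets (-0.50 and 0.36), followed by the 10 genes (-0.08 and 0.44), and the sensors, the ATF6 and XBP1 targets and the p53 targets have nearly equal medians.

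The genes most like DDIT3 were sought by the Pearson correlation of log2(TPM + 1) values over the 8 libraries, each centred on the mean of its line, among 8621 other named genes averaging 10 TPM or more. The points share the total of each library, and the values are a description. The 5 highest were RNMT (r = 0.992), EIF1 (0.991), ASNS (0.979), ADAM17 (0.978) and HIBADH (0.977). EIF1, a translation initiation factor that governs start codon choice, was at 220, 196, 217 and 194 TPM in AsPC-1 and at 229, 279, 233 and 280 TPM in PANC-1. Within the set, SESN2 (0.948), ATF4 (0.945) and DDIT4 (0.919) followed DDIT3 most closely and ATF3 (0.687) least. For ATF4 the highest were HK2 (0.983), NFIL3 (0.980) and WASF2 (0.976). HK2, a hexokinase, was at 22.7, 18.1, 26.8 and 17.0 TPM in AsPC-1 and at 30.4, 44.9, 29.9 and 49.7 TPM in PANC-1.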

How the data were processed

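The authors deposited a single table whose 8 value columns are in TPM per the file headers. The submitters' processing notes name STAR 2.7.3a, HTSeq 2.0.2 and the build hg38, while the annotation and the step from counts to TPM are not given in the sources used here. Poly(A) RNA was sequenced from stranded libraries, per the labels' protocols. The table also held 985926 blank rows, which were dropped, and digit-group commas were removed. Depth is unknown, so no counting error could be given.

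Values were analysed as log2(TPM + 1) for the 19122 genes that reached 1 TPM in 2 libraries or more, with limma 3.58.1 in R 4.3.3 (eBayes with a trend, Benjamini-Hochberg adjustment over all genes, threshold 0.05). Models had terms for line, roseoflavin and trametinib (4 residual degrees of freedom) and 1 interaction where tested (3 residual degrees of freedom). Models without the interaction of line and roseoflavin counted that difference as spread. Columns were assigned to samples by their labels. The labels name no replicate cultures, so p-values measure only the spread between these libraries, which may be technical.

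Named genes were the 10 members, in each list examples from the 4 members averaging 5 TPM or more with the widest differences between lines, the 5 genes most like DDIT3 and 3 most like ATF4, and genes overlapping a member on its strand. The members and lists were chosen with earlier results of these data known. Promoter windows matched 9 of 10 members. Models for roseoflavin were also run on simulated data with independent noise, which cannot show whether p-values from single libraries hold. Alternatives were quantile normalization, a pseudocount of 0.1, no filter, a filter at an average of 10 TPM, RefSeq mRNAs past that filter, removal of 37 mitochondrially encoded genes, other model terms and leaving out each library.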

Additional observations from a re-analysis of the deposited data

Results flagged for a closer look

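The response to roseoflavin differed between the lines, by the interaction test in limma, for DDIT3 (1.19, PANC-1 change minus AsPC-1 change on the log2 scale), DDIT4 (0.91) and the gene AC022506.1 that overlaps DDIT3 (1.25). Each was lower in 2 of 2 comparisons in AsPC-1 and higher in 2 of 2 in PANC-1. Those comparisons are the values behind the test, so they add no support to it. The genes are among 4 called with a positive difference, 0.0209% of the 19122 tested, and the entries for DDIT3 and AC022506.1 are not independent.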

How the results depend on the processing

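No paired analysis was possible because each line and treatment had 1 library and the labels give no replicate numbers. For the line difference in the response to roseoflavin, 2 of the 10 genes passed, and this count was 0 under quantile normalization, 0 without mitochondrially encoded genes, 0 with both line interactions in one model, 4 among RefSeq mRNAs and 0 to 0 without any 1 library. Over all genes the 5 calls became 0, 0, 0, 103 and 0 in the same settings, 8 with a pseudocount of 0.1 and 98 without a filter. Within AsPC-1 the 0 members became 1 without a filter and 2 among RefSeq mRNAs (0 of all genes became 95 and 72, and 1 with a pseudocount of 0.1). Within PANC-1 the 0 members became 2 with a filter at an average of 10 TPM and 6 among RefSeq mRNAs (0 of all genes became 22 and 75, 2 with a pseudocount of 0.1 and 1 without a filter). Over all genes, the 0 calls for the line difference in the trametinib response became 4 with a pseudocount of 0.1, 244 without a filter and 2 without mitochondrially encoded genes, those for the interaction of the compounds 14 without a filter, and those for trametinib 1 among RefSeq mRNAs. The 16027 calls for the level became 8388 with a filter at an average of 10 TPM and 7236 among RefSeq mRNAs, where fewer genes were tested, and the share of higher calls among them went from 74.4% to 52.6% under quantile normalization and 60.9% without mitochondrially encoded genes.

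Leaving out 1 library turned the AsPC-1 roseoflavin estimate of ATF3 (-0.24 to 0.39, negative without the combination library), TRIB3 (-0.0796 to 0.23, without the trametinib library), PPP1R15A (-0.0512 to 0.0600, without the vehicle or the roseoflavin library) and CEBPB (-0.10 to 0.20, without the trametinib or the combination library). It also turned the level difference of PPP1R15A (-0.0502 to 0.0477, positive without the AsPC-1 vehicle, AsPC-1 trametinib or PANC-1 trametinib library) and of CEBPB (-0.0268 to 0.15, negative without the AsPC-1 roseoflavin library). The level difference of ATF4 was -0.22 under quantile normalization and -0.29 without mitochondrially encoded genes, that of CEBPB -0.40 and -0.31, and that of CHAC1 -0.0663 under quantile normalization. Differences near 0 also turned for CASTOR1 (-0.0378 under quantile normalization, -0.0079 without mitochondrially encoded genes, -0.16 to 0.24 without 1 library) and TSC2 (-0.16 to 0.0950 without 1 library). The causes were not tested. TPM keeps no depth, so counting error at low values such as ATF3 in AsPC-1 is unknown.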
